A study of Mus musculus with 6 samples.

Results

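The genes described here encode DNA topoisomerases and the enzymes that release topoisomerases trapped on DNA: Top1, Top1mt, Top2b, Top3a, Top3b, Tdp1 and Tdp2. They were chosen by gene symbol, without use of their values, and all 7 were found among the 12134 genes of the table. RNA was measured in AB22 cells, a mouse malignant mesothelioma line that carried a doxycycline-inducible lentiviral hairpin, with 3 libraries (A, B and C) for a control hairpin, shCTRL, and 3 for a hairpin that targets Hmgb1, shHMGB1. In both groups cells were transduced at a multiplicity of 20, puromycin (4 μg/mL) removed those without the vector, cultures stood in 5% oxygen, doxycycline (1 μM) was present for 7 to 10 days, and RNA was taken from cells held in G1. No radiation dose is given for these RNA samples. By these labels the groups differ in the hairpin, and no untransduced or uninduced cells were analysed here. The sources used here do not say whether a replicate was its own infection or its own pool of cells; p-values therefore rest on the spread between these libraries, which may be technical. The series is about nucleosomes and breaks caused by radiation. The comparison asks whether these transcripts differ in G1 cells when Hmgb1, whose product is a DNA-bending protein of chromatin, is silenced.

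Topoisomerases relax or untangle DNA by cutting it, letting DNA pass or swivel, and sealing it again, and during each cycle a tyrosine of the enzyme is joined covalently to the DNA end. Type I enzymes cut a single strand and type II enzymes cut both. Drugs such as camptothecin and etoposide, and lesions nearby, can trap the enzyme on the DNA, which leaves a protein-blocked break. TDP1 hydrolyses the bond left by trapped TOP1, and TDP2 hydrolyses the bond left by trapped TOP2. TOP1 and TOP2B are made in dividing and resting cells alike and act on transcribed chromatin, whereas TOP2A is made mainly in dividing cells.

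None of the 7 genes passed the test between the hairpins. Values are RPKM (reads scaled by gene length and library size), fold changes are shHMGB1 over shCTRL on log2(RPKM + 0.1), and adjusted p-values come from limma with Benjamini-Hochberg adjustment over all 11669 genes tested, with a threshold of 0.05. All 7 members passed the filter on low values, 4 had higher and 3 had lower means in shHMGB1, and the median of their log2 fold changes was 0.04, beside 0.01 over all tested genes. Of the members 0 were called, against 3 of all tested genes, or 0.0257%. The unadjusted p was under 0.05 for 1 member, Top2b, and for 7.91% of tested genes. In voom on recovered reads 0 members were called as well. In bulk RNA, fewer cells that make a transcript and less of it per cell cannot be told apart.

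In all, 12867332 to 23425330 reads per library fell on the listed genes. Hmgb1 had 31.9 to 45.5 RPKM with the control hairpin and 3.80 to 7.18 RPKM with the Hmgb1 hairpin (log2 fold change -2.73, adjusted p = 0.0269 in limma), which goes with the labels. The call was lost (limma adjusted p from 0.115 to 0.248) without any 1 of the controls or without shHMGB1 B, and its losses elsewhere are given with the alternatives, while Hmgb1 stayed lower in all of them. Of the 12 mesothelial markers looked for, 4 were in the table analysed here, and all 4 had lower means in shHMGB1, with a median log2 fold change of -0.66, 3 without overlap between the groups and 0 called. Of all tested genes, 7.07% were lower in shHMGB1 without overlap. Mesothelin, Msln, measured 60.9, 57.8 and 82.8 RPKM in shCTRL A, B and C against 39.1, 31.7 and 27.9 RPKM in shHMGB1 A, B and C (log2 fold change -1.02, unadjusted p = 0.00104, limma adjusted p = 0.249). The mean log2 level of the 4 was 4.68 to 4.93 in shCTRL and 4.06 to 4.19 in shHMGB1, and its part in the results below was not tested. Of 10 leukocyte and endothelial markers only Lyz2 and Kdr were in the table, at 1.97 to 2.71 and 0.495 to 3.60 RPKM. The libraries differed widely in retained 18S ribosomal RNA, from 623.4 RPKM of Rn18s-rs5 in shHMGB1 C to 62830 RPKM in shCTRL B. Transcripts of G2/M cycling genes also differed, with a mean log2 level of -0.23, 0.44 and -0.23 in shCTRL A, B and C against 0.44, 1.87 and 0.62 in shHMGB1 A, B and C. Replicate B of shHMGB1 thus stood apart in cycling genes, and shHMGB1 C and shCTRL B lay at the ends of the 18S range. All 11 tested G2/M genes and 9 of 10 tested G1/S genes had higher means in shHMGB1, with medians of 0.99 and 0.58 on the log2 scale and 0 called, and their part in the results below was not tested.

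The promoters of 4 genes are shown because the level of these genes, or their spread among libraries, sets them apart in what follows: Top1, the most abundant type I gene, the type II paralogues Top2b and Top2a, and Tdp1. Each line gives the 250 bases before the annotated start, read 5′ to 3′ on the strand of the gene, from RefSeq on GRCm38.p6. Capitals mark matches to 3 motifs, searched on both strands, so that reverse complements are in capitals too. The first is the CCAAT box, searched as these 5 letters. The next is the GC box, searched as GGGCGG. The last is the core of the NRF1 motif, searched as GCATGCGC.
Top1: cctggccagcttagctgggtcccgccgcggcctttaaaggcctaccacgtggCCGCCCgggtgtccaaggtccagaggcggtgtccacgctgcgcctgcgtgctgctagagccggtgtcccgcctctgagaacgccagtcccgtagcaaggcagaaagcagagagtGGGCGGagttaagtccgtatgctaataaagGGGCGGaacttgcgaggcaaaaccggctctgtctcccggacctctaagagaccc
Top2b: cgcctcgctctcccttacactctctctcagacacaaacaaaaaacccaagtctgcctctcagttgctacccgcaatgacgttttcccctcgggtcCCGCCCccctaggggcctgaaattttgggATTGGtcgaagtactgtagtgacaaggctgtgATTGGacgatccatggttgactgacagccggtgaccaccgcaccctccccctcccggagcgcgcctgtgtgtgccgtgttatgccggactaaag
Top2a: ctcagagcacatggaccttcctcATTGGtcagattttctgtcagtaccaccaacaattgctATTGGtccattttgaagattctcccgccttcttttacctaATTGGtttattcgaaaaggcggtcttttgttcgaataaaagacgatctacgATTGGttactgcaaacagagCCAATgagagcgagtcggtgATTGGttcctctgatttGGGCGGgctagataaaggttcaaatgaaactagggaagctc
Tdp1: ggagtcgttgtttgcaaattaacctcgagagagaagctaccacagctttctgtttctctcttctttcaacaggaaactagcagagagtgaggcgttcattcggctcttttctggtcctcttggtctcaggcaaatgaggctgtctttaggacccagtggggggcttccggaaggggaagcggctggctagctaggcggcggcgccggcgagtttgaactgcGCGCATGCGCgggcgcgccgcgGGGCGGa

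The Top1 window lies at chr2:160645647-160645896 on the plus strand, that of Top2b at chr14:16364956-16365205 on the plus strand, that of Top2a at chr11:99024190-99024439 on the minus strand and that of Tdp1 at chr12:99884268-99884517 on the plus strand. Top2a held 6 matches to the CCAAT box, Top2b held 2, and Top1 and Tdp1 held 0. At least 1 CCAAT box was found in 33.8% of the 32851 promoter windows of the same length. The GC box was found 3 times in Top1 and once in each of the other 3 windows, and in 32.7% of all windows. The Tdp1 window held 2 overlapping matches to the NRF1 core, at 29 and 27 bases before the start, and 2.26% of all windows held any. These 2 matches form 1 stretch that reads the same on both strands, with 1 match on each strand. In G+C content the windows of Top1, Tdp1 and Top2b measured 63.6%, 58.4% and 57.6% and that of Top2a 43.6%, beside a median of 52.4% over all windows. These matches describe the letters of the reference assembly, and their distances are from the RefSeq start. In GENCODE M21, used for the loci given below, Top1, Top2b and Tdp1 begin inside their windows. Of the 7 members, 4 had an entry in the promoter table, the remaining entry being that of Top3b.

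Top1 encodes the nuclear type IB topoisomerase that relieves supercoils ahead of RNA and DNA polymerases. It lies on chromosome 2 from 160645888 to 160722764 (GENCODE M21 on GRCm38, as for all loci here). It measured 30.1, 25.4 and 35.2 RPKM in shCTRL A, B and C against 28.5, 40.7 and 34.0 RPKM in shHMGB1 A, B and C, from 1064 to 3468 reads per library. The groups overlapped: the highest library was shHMGB1 B and the lowest was shCTRL B, and shHMGB1 A lay below shCTRL A. The means were 30.2 ± 4.89 and 34.4 ± 6.09 RPKM (SD, n = 3 each), with a log2 fold change of 0.18 ± 0.19 (SE; 95% interval from -0.26 to 0.63; limma adjusted p = 0.781). On a linear scale the interval runs from 0.834-fold to 1.55-fold. Without shHMGB1 B the log2 fold change was 0.06, without shCTRL B it was 0.07, without shHMGB1 A it was 0.31, and it was -0.02 once the 18S level entered the fit as a covariate.

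Top1mt encodes the mitochondrial type IB enzyme, which relaxes mitochondrial DNA. Its minus-strand locus on chromosome 15 runs from 75657035 to 75678800, where 95 of its exonic bases are shared with the antisense transcript Gm15945. It measured 11.97, 12.7 and 13.8 RPKM with the control hairpin and 11.8, 11.7 and 11.1 RPKM with the Hmgb1 hairpin. Each library of shHMGB1 was lower than each control, but the gap between shCTRL A and shHMGB1 A was smaller than the counting error of either, with exact 95% Poisson intervals of 10.7 to 13.4 and 10.7 to 12.9 RPKM. The means were 12.8 ± 0.94 and 11.5 ± 0.36 RPKM (SD, n = 3 each), and the log2 fold change was -0.16 ± 0.14 (SE; 95% interval from -0.48 to 0.17; limma adjusted p = 0.771). When libraries were rescaled to equal sums of RPKM, which moved the median of all genes to 0.36, the value turned to 0.20, still below that median. It had the narrowest spread of the 7 genes within shHMGB1, with a coefficient of variation of 3.16%, where counting alone gives 4.98%. Of the 8 genes listed for mitochondrial DNA maintenance, 0 were called, 5 were higher and 3 lower, with a median of 0.07. Its most abundant members, the ligase gene Lig3 and the DNA polymerase gamma gene Polg, had log2 fold changes of 0.12 and 0.13 (limma adjusted p = 0.799 and 0.789). In that list only Polg was higher in shHMGB1 without overlap between the groups, and 0 genes were lower without overlap. Over all tested genes the shares were 6.90% and 7.07%.

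Top2b encodes the type II topoisomerase beta, which is made in dividing and resting cells and cuts both strands at promoters, enhancers and loop anchors. It lies on chromosome 14 from 16365179 to 16435462, and 1793 of its annotated exonic bases are shared with Rarb on the other strand. It measured 29.3, 36.0 and 34.5 RPKM in shCTRL A, B and C against 28.4, 23.6 and 25.5 RPKM in shHMGB1 A, B and C, from 2152 to 4984 reads. The shHMGB1 libraries all lay below the shCTRL libraries, though shCTRL A and shHMGB1 A were close, with Poisson intervals of 28.1 to 30.5 and 27.4 to 29.4 RPKM. The means were 33.2 ± 3.52 and 25.8 ± 2.40 RPKM (SD, n = 3 each), and the log2 fold change was -0.36 ± 0.15 (SE; 95% interval from -0.72 to -0.0031). The unadjusted p was 0.0485 and the limma adjusted p was 0.626, so the difference did not pass. Groups that did not overlap were also seen for 14.0% of all tested genes, and for 7.07% in the lower direction. Top2b and Top1mt were the 2 members with such groups, both lower in shHMGB1, and 0 members were higher without overlap, against 6.90% of tested genes. Rescaled to equal sums, the Top2b value was -0.0031, against 0.36 for the median gene. The overlapping gene Rarb, which encodes retinoic acid receptor beta, measured 6.68 ± 1.40 and 4.86 ± 0.94 RPKM (SD, n = 3 each; log2 fold change -0.45, limma adjusted p = 0.687). Whether reads of the shared bases entered either value was not tested.

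**Figure D1:**
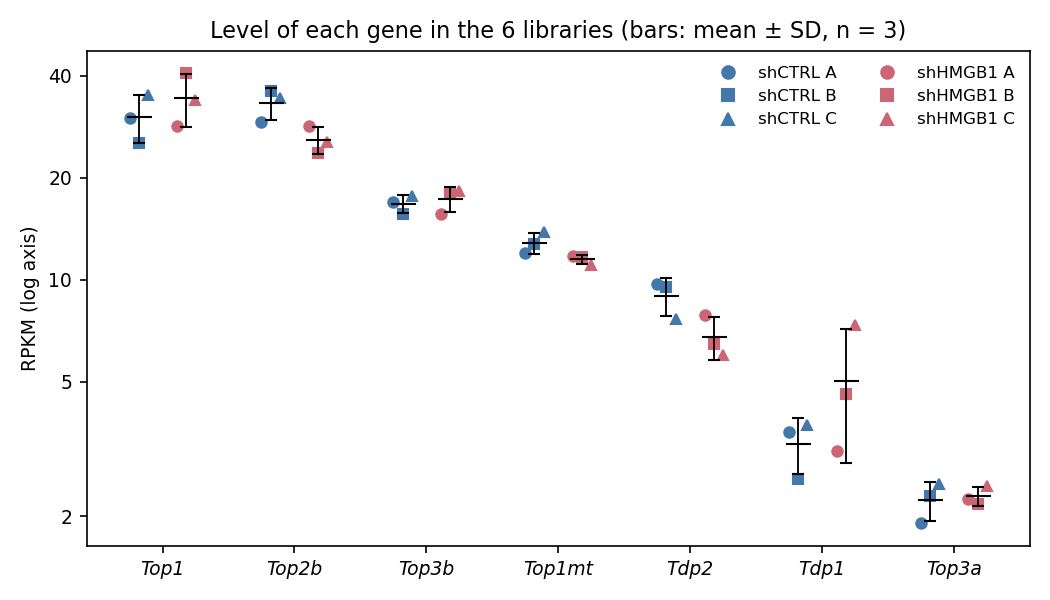
RPKM on a log axis for each of the 7 genes, with 1 point per library and the mean ± SD of 3 libraries in black. Top1 and Top2b lie highest, between 23.6 and 40.7 RPKM, and Top3a lowest, between 1.91 and 2.495 RPKM; Tdp1 spreads most within shHMGB1, from 3.12 to 7.35 RPKM.

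Top2a, the type II paralogue that separates sister chromatids in mitosis and a marker of cycling cells, is not among the 7 genes and is given for the contrast. It shares 122 exonic bases with the small nucleolar RNA gene Gm23451 on the same strand. Whether reads of those bases entered its value was not tested. Top2a measured 6.20, 6.75 and 5.32 RPKM with the control hairpin and 7.46, 12.2 and 5.31 RPKM with the Hmgb1 hairpin. The high value was that of shHMGB1 B, the library with the highest level of G2/M cycling genes, and shHMGB1 C lay as low as the lowest control. Its log2 fold change was 0.37 ± 0.29 (SE; limma adjusted p = 0.753), and it was 0.06 without shHMGB1 B, 0.65 without shHMGB1 C and 0.70 with array quality weights. With the level of G2/M cycling genes as a covariate it was -0.21 ± 0.32, and that of Top2b was -0.29 ± 0.25 (SE). The SE of Top2b was 0.15 without this covariate. The G2/M level was itself higher on average in shHMGB1, so with 6 libraries this fit cannot cleanly separate cycling from the hairpin. The part of cycling was not tested. Top2b exceeded Top2a in every library, by 4.72, 5.33 and 6.48 times with the control hairpin and by 3.80, 1.94 and 4.80 times with the Hmgb1 hairpin. The groups overlapped, since shHMGB1 C lay above shCTRL A. On a log2 scale the ratio was 2.43 ± 0.23 in shCTRL and 1.70 ± 0.67 in shHMGB1 (SD, n = 3 each), a difference of -0.73 (p = 0.2 in an exact two-sided permutation test, 0.4 adjusted over the 4 ratios tested).

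Top3a and Top3b encode the type IA enzymes, which pass one strand through another. TOP3A works with BLM, RMI1 and RMI2 to take apart recombination intermediates and also acts in mitochondria, and TOP3B, with its partner TDRD3, acts on both DNA and RNA. Top3a lies on chromosome 11, minus strand, from 60740058 to 60777365 and measured 1.91, 2.30 and 2.495 RPKM in shCTRL A, B and C against 2.25, 2.18 and 2.46 RPKM in shHMGB1 A, B and C. All 3 shHMGB1 values lay within the range of the controls. The log2 fold change was 0.04 ± 0.20 (SE; 95% interval from -0.41 to 0.50; limma adjusted p = 0.942). With 107 to 273 reads per library it was the least abundant of the 7, and the mean counting error was 8.39% in shCTRL and 7.41% in shHMGB1, against observed coefficients of variation of 13.3% and 6.46%.

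Top3b lies on chromosome 16 from 16870736 to 16892990, sharing 108 exonic bases with Vpreb1 on the other strand. It measured 16.9, 15.6 and 17.6 RPKM with the control hairpin and 15.6, 18 and 18.3 RPKM with the Hmgb1 hairpin, so shHMGB1 A was as low as the lowest control and the other 2 lay above the highest. The means were 16.7 ± 1.02 and 17.3 ± 1.49 RPKM (SD, n = 3 each), and the log2 fold change was 0.05 ± 0.14 (SE; 95% interval from -0.29 to 0.38; limma adjusted p = 0.914). Over the 6 libraries its highest value was 1.18 times its lowest, the smallest such range of the 7 genes. The ratio of Top3a to Top3b was 0.113, 0.147 and 0.141 in shCTRL A, B and C against 0.144, 0.121 and 0.134 in shHMGB1 A, B and C, with a log2 mean of -2.86 in each group (exact permutation p = 1, two-sided).

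Of the listed partners, Blm, the helicase that joins TOP3A, measured 1.69, 3.07 and 4.87 RPKM with the control hairpin and 0.789, 1.46 and 1.20 RPKM with the Hmgb1 hairpin. All 3 shHMGB1 libraries lay below the controls, and the log2 fold change was -1.32 ± 0.40 (SE; unadjusted p = 0.0108, limma adjusted p = 0.481), so it did not pass. Blm, Rmi1 and Tdrd3 are named here after their values were seen. Rmi1, which encodes the scaffold of that complex, measured 1.87 ± 0.44 and 2.53 ± 0.28 RPKM (SD, n = 3 each; limma adjusted p = 0.689). Tdrd3 measured 5.81 ± 1.07 and 5.22 ± 0.66 RPKM (SD, n = 3 each; limma adjusted p = 0.815). Fmr1, which encodes the RNA-binding protein FMRP found with TOP3B and TDRD3, had a log2 fold change of -0.25, and Topors, which encodes a ligase that binds TOP1, had -0.15 (limma adjusted p = 0.722 and 0.775). Those last 2 were the most abundant of the 7 partners and paralogues tested, of which 0 were called, 2 were higher and 5 lower, with a median of -0.14. In that list Blm and Fmr1 were lower in shHMGB1 without overlap between the groups, and 0 genes were higher without overlap. Over all tested genes the shares were 7.07% and 6.90%.

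**Figure D2:**
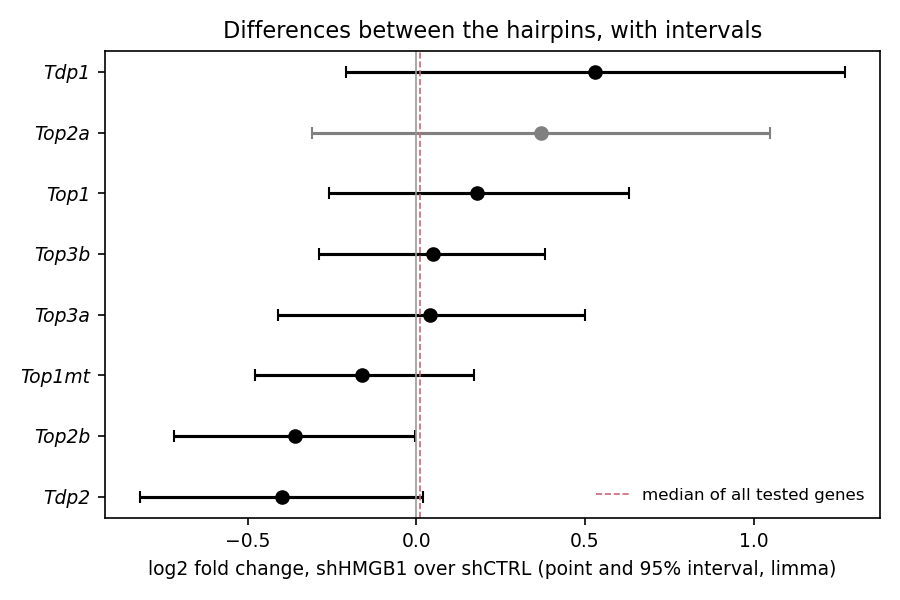
Log2 fold change of shHMGB1 over shCTRL with its 95% interval from limma for the 7 genes in black and Top2a in grey; the dashed line is the median of all tested genes. Every interval but that of Top2b includes 0, and that of Top2b ends at -0.0031; none of the genes passed after adjustment over all genes.

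Tdp1 encodes tyrosyl-DNA phosphodiesterase 1, which cleaves the link between a TOP1 tyrosine and the DNA. It lies on chromosome 12 from 99884517 to 99955219. It measured 3.55, 2.58 and 3.73 RPKM in shCTRL A, B and C against 3.12, 4.60 and 7.35 RPKM in shHMGB1 A, B and C, from 57 to 223 reads per library. Replicates B and C of shHMGB1 lay above all controls and replicate A lay between them. The means were 3.28 ± 0.62 and 5.02 ± 2.15 RPKM (SD, n = 3 each), and the log2 fold change was 0.53 ± 0.32 (SE; 95% interval from -0.21 to 1.27; limma adjusted p = 0.718). The interval reaches 2.41-fold at its upper end, so these libraries bound Tdp1 less closely than the other 6 genes. The spread within shHMGB1, 42.7%, was larger than the counting error of 7.54%, and the Poisson interval of shHMGB1 C, 6.41 to 8.37 RPKM, lay above the 3.99 to 5.26 RPKM of shHMGB1 B. Without shHMGB1 C the log2 fold change was 0.22, and without shHMGB1 A it was 0.82.

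Tdp2 encodes tyrosyl-DNA phosphodiesterase 2, which frees DNA ends from TOP2 so that they can be joined. It lies on chromosome 13 from 24831679 to 24842153. It measured 9.70, 9.55 and 7.64 RPKM with the control hairpin and 7.85, 6.46 and 5.98 RPKM with the Hmgb1 hairpin, from 174 to 382 reads. Replicates B and C of shHMGB1 lay below all controls, and replicate A lay just above shCTRL C. The means were 8.97 ± 1.15 and 6.76 ± 0.97 RPKM (SD, n = 3 each), and the log2 fold change was -0.40 ± 0.18 (SE; 95% interval from -0.82 to 0.02; unadjusted p = 0.0582, limma adjusted p = 0.648). On a linear scale the interval runs from 0.565-fold to 1.01-fold. Rescaled to equal sums the value was -0.05, against 0.36 for the median gene.

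The ratio of Tdp1 to Tdp2 within a library does not depend on the scaling between libraries. It was 0.366, 0.270 and 0.488 in shCTRL A, B and C against 0.397, 0.712 and 1.23 in shHMGB1 A, B and C. Replicates B and C of shHMGB1 lay above all controls, and replicate A lay among them. On a log2 scale the mean was -1.43 ± 0.42 in shCTRL and -0.50 ± 0.80 in shHMGB1 (SD, n = 3 each), a difference of 0.93 (exact two-sided permutation p = 0.2, 0.4 adjusted over 4 ratios). It was 0.54 without shHMGB1 C. With 3 libraries against 3 such a test cannot give a p below 0.1. The ratio of Top1 to Top1mt was 2.52, 2.00 and 2.54 with the control hairpin and 2.43, 3.49 and 3.07 with the Hmgb1 hairpin, a log2 difference of 0.34 (exact permutation p = 0.3, 0.4 adjusted).

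**Figure D3:**
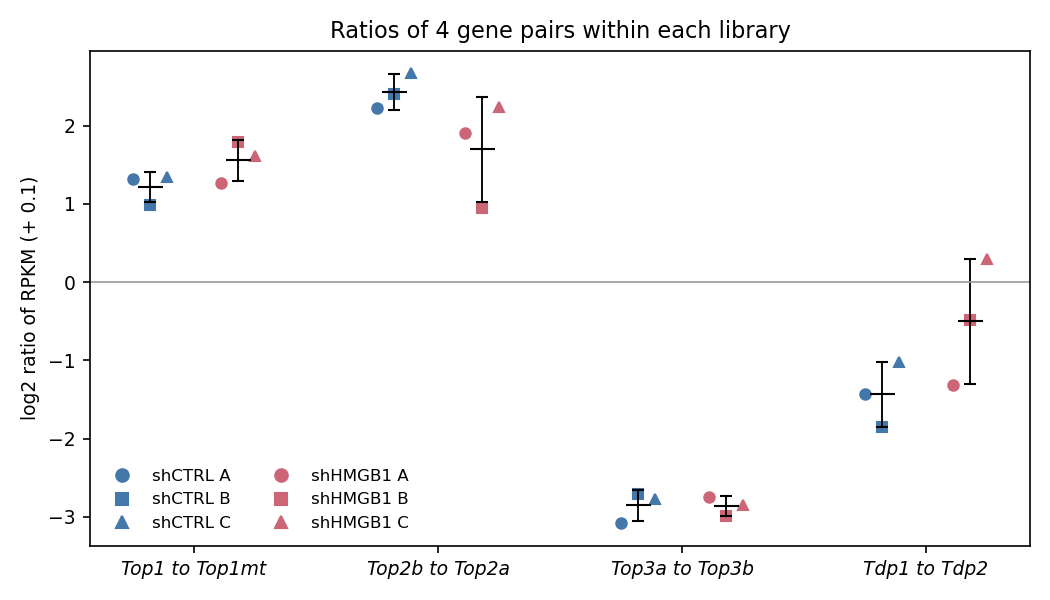
Log2 ratio of RPKM (+ 0.1) of 4 gene pairs in each library, with the mean ± SD of 3 libraries in black. The groups overlap in all 4 pairs; the ratio of Tdp1 to Tdp2 is highest in shHMGB1 C, at 0.29, and that of Top2b to Top2a is lowest in shHMGB1 B, at 0.95.

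Retained 18S ribosomal RNA is set beside these values here, and no correlation with it was computed. Rn18s-rs5 measured 22960, 62830 and 2177 RPKM in shCTRL A, B and C against 9004, 2567 and 623.4 RPKM in shHMGB1 A, B and C. The library with the least of it, shHMGB1 C, had the highest Tdp1 and the lowest Tdp2, and the library with the most, shCTRL B, had the lowest Tdp1 and the lowest Top1. The highest Top1, 40.7 RPKM, and the lowest Top2b, 23.6 RPKM, were both in shHMGB1 B, which was at neither end of the 18S range. With 18S as a covariate the log2 fold change of Tdp1 was 0.08 ± 0.27 and that of Tdp2 was -0.19 ± 0.17 (SE), while that of Top2b was -0.33 ± 0.17 (SE). This covariate, and Rn18s-rs5 as its measure, were chosen after the data were seen, and the part of ribosomal RNA in these differences was not tested.

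**Figure D4:**
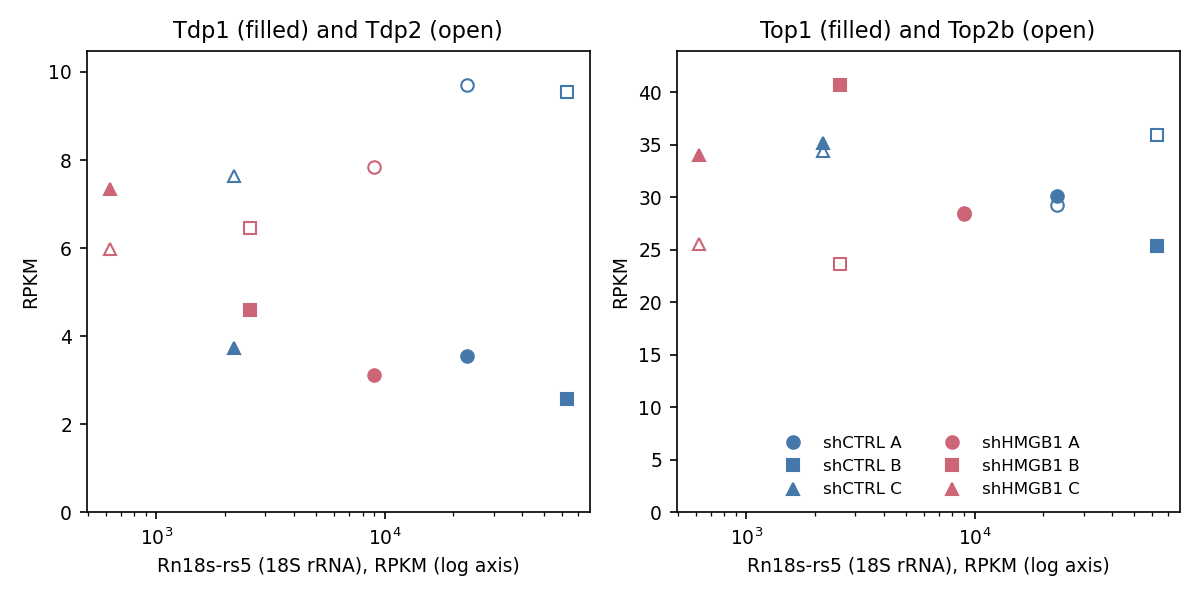
RPKM of Tdp1 and Tdp2 (left) and of Top1 and Top2b (right) against RPKM of Rn18s-rs5 on a log axis, 1 symbol per library. Tdp1 is highest, at 7.35 RPKM, and Tdp2 lowest, at 5.98 RPKM, in shHMGB1 C, where Rn18s-rs5 is lowest at 623.4 RPKM; in shHMGB1 A the symbols of Top1 and Top2b coincide.

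The order of the 7 genes by level per length was nearly the same in all libraries. Top3b, Top1mt and Top3a came next after that pair, next again and last in each of the 6. Top1 and Top2b shared the top: Top1 was 1.03, 0.706 and 1.02 times Top2b in shCTRL A, B and C against 1.00, 1.72 and 1.33 times in shHMGB1 A, B and C, so the controls lay on both sides of equality, while shHMGB1 B and C lay above the control range. This difference was not tested. Tdp2 lay above Tdp1 in 5 libraries and below it in shHMGB1 C. Top1 exceeded 79.4% to 87.3% of the listed genes and Top3a exceeded 18.6% to 22.2%. The 7 levels added up to 103.4, 104.1 and 115 RPKM with the control hairpin and 97.5, 107.2 and 104.7 RPKM with the Hmgb1 hairpin, and these ranges overlap.

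None of the listed genes that act after TDP1 passed the test. TDP1 leaves a nick that PARP1 senses and that XRCC1, DNA polymerase beta and ligase III, among others, repair. Of the 6 listed genes 0 were called, 3 were higher and 3 lower, and the log2 fold changes ran from -0.11 to 0.12. Parp1 measured 35.6 ± 2.66 and 37.0 ± 2.29 RPKM and Polb 15.3 ± 4.56 and 15.4 ± 2.90 RPKM (SD, n = 3 each; limma adjusted p = 0.898 and 0.953). Of 6 genes for the proteolysis and SUMO or ubiquitin tagging of trapped complexes 0 were called, with 3 higher, 3 lower and a median of 0.09. Among the most abundant of them, the SUMO-targeted ubiquitin ligase gene Rnf4 had a log2 fold change of -0.04 (limma adjusted p = 0.937). Zfp451, which encodes the SUMO ligase that helps TDP2 reach trapped TOP2, measured 6.01, 4.00 and 4.76 RPKM with the control hairpin and 4.93, 5.26 and 10.5 RPKM with the Hmgb1 hairpin (limma adjusted p = 0.75). Its high value, like that of Tdp1, was in shHMGB1 C; it was named after its values were seen.

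Nucleases offer a route that does not need either phosphodiesterase. Of the 8 genes tested for nuclease removal of trapped complexes, which include partners of nucleases, 0 were called, 6 were higher and 2 lower, with a median of 0.06. Ercc1, which encodes the partner of the XPF nuclease, had 26.5, 25.8 and 24.3 RPKM with the control hairpin and 28.4, 29.5 and 52.2 RPKM with the Hmgb1 hairpin (log2 fold change 0.46, limma adjusted p = 0.687). The groups did not overlap, and shHMGB1 C stood far above the rest. Nbn, of the MRE11 complex, had a log2 fold change of 0.07 (limma adjusted p = 0.928). Of the 6 end-joining genes that can follow TDP2, 0 were called, 2 were higher and 4 lower, with a median of -0.25. The Ku genes Xrcc5 and Xrcc6 were the most abundant, at 46.9 ± 6.24 and 35.0 ± 5.99 RPKM for Xrcc5 and 17.7 ± 1.92 and 14.8 ± 2.93 RPKM for Xrcc6 (SD, n = 3 each; limma adjusted p = 0.623 and 0.736). Xrcc5 was lower in shHMGB1 without overlap between the groups (log2 fold change -0.43, limma unadjusted p = 0.0461). Groups without overlap, in either direction, were seen for 14.0% of all tested genes.

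Among all tested genes outside the 7, those whose log2 levels followed each gene most closely over the 6 libraries were E2f4 and Mrpl37 for Top1, Arrb1 for Top1mt, Tia1 and Slc30a4 for Top2b, Zfp775 and Ggta1 for Top3a, Polm and Zfp335 for Top3b, Cblb and Whrn for Tdp1 and Pcf11 and Gsg2 for Tdp2. They were among the 2 nearest of each and were picked from 11669 genes for their likeness, which is given as values only. The measure was Pearson's r of log2(RPKM + 0.1) over the 6 libraries, which ran from 0.982 to 0.999 for the 2 nearest of each. E2f4 had 22.4, 17.1 and 27.5 RPKM with the control hairpin and 20.3, 32.4 and 26.5 RPKM with the Hmgb1 hairpin, the order of Top1. Cblb, which encodes a ubiquitin ligase, had 2.87, 1.78 and 2.92 RPKM and 2.31, 3.92 and 7.50 RPKM, with the same high library, shHMGB1 C, as Tdp1. Pcf11, which encodes a factor of transcript cleavage and termination, had 9.47, 9.43 and 8.23 RPKM and 8.44, 7.39 and 6.97 RPKM, the order of Tdp2.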

How the data were processed

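Ribosome-depleted total RNA from 6 AB22 libraries was analysed. Tools named in the submitters' processing notes are edgeR, featureCounts, STAR 2.5.3a and Trimmomatic 0.32, and the builds named there are GRCm38 and mm10. The deposited values are log2 RPKM, with base 2, per the file's name and values; the sources used here do not give the gene model, the strandedness or the authors' filter on genes. Values were raised as powers of 2, 0.1 RPKM was added, and the 11669 of 12134 genes averaging 0.5 RPKM or more were tested with limma 3.58.1 in R 4.3.3, eBayes with trend and robust, group as the only term. SE is limma's standard error, and its intervals are 95% intervals.

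Reads were recovered from the steps between low values. With library sizes found from 1610 genes of 1 transcript in GENCODE M21 and a prior of 0.25 reads, 93.5% of their low values lay within 0.05 of a whole read, and 12132 of 12134 genes gave whole reads within 0.02 at some whole-number length; with wrong sizes 0 of 300 did. The lengths behind the values were 3856 bases for Top1, 5660 for Top2b and 2040 for Tdp1, shorter than the 10426, 14613 and 7988 exonic bases of GENCODE M21; which exons were counted is not known. Poisson intervals cover counting error only.

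Scripts were tested on simulated data. Protein sequences were not used here, so the comparison of them that had been planned was not made. Ratios were compared with exact two-sided permutation tests. Any pair of libraries shared identical values for at most 2 genes. Genes named besides the members were, from each list, those past the threshold or the 2 most abundant, and the 2 nearest in pattern; others are marked, and some genes that this rule names are not reported here. The members, lists and tests were chosen with earlier results of these data known.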

Additional observations from a re-analysis of the deposited data

How the results depend on the processing

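Over 20 alternatives, 0 members were called in any, with adjusted p-values from 0.194 upward, and 130 of 138 member values kept their direction (Top3a and Tdp1 were not tested among genes of at least 5 RPKM). The exceptions were Top1 at -0.02, Top3a at -0.05 and Top3b at -0.06 with the 18S covariate, Top1mt at 0.20 with equal sums of RPKM, Top3a at -0.01 after quantile normalization, and values near 0 on leaving out 1 library, which ranged from -0.06 to 0.12 for Top3a and from -0.0011 to 0.12 for Top3b. The cause was not tested. On leaving out 1 library Top1 ranged from 0.06 to 0.31, Top1mt from -0.21 to -0.10, Top2b from -0.45 to -0.30, Tdp1 from 0.22 to 0.82 and Tdp2 from -0.51 to -0.32. Top2a was -0.21 with the G2/M covariate, 0.72 with equal sums and 0.06 to 0.65 on leaving out 1 library. Hmgb1 ranged from -2.93 to -2.36; besides the losses on leaving out 1 library its adjusted p was 0.0546 among genes of at least 5 RPKM and 0.585 with the G2/M covariate. Ratio differences ranged from -0.12 to 0.07 for Top3a to Top3b, 0.22 to 0.48 for Top1 to Top1mt, -1.0 to -0.35 for Top2b to Top2a and 0.54 to 1.34 for Tdp1 to Tdp2. The count of all genes called, 3, was 0 among genes of at least 5 RPKM, 5 with equal sums, 21 with array quality weights, whose estimation stopped before full convergence, 5 with the 18S covariate, 0 with the G2/M covariate and 0 to 8 on leaving out 1 library (0 without shCTRL B, shCTRL C or shHMGB1 B, and 8 without shHMGB1 A). Both covariates were added after the data were seen, and the G2/M level itself differed between the hairpins. With the replicate letter as a block it was 7; deviations of same-lettered libraries correlated at 0.145, -0.104 and 0.476 over genes for A, B and C, so the letters were not taken to pair the libraries. Tdp1 and Top3a, with 57 to 273 reads per library, had the largest counting error of the members. For Tdp1 the spread within shHMGB1, 42.7%, was larger than its counting error of 7.54%.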
